A study of Mus musculus with 6 samples.

Results

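Retinoschisin is a secreted protein built around a discoidin domain, the fold also known as the type C domain of coagulation factors V and VIII. The genes described here are 10 mouse relatives that encode proteins with such a domain: Mfge8, Edil3, Ddr1, Ddr2, Nrp1, Nrp2, Cntnap1, Cntnap2, F5 and F8. Every probe set that the platform annotation maps to one of these symbols alone was taken, which gave 24 probe sets for 10 of the 12393 genes named on the array. The data are retinal total RNA of mice at postnatal day 7, hybridised to 6 Affymetrix arrays. The 3 knockout arrays held RNA of C57BL/6 mice with the Rs1h gene knocked out (Rs1h-/Y), and the 3 wildtype arrays held RNA of C57BL/6 wildtype mice. The labels name neither the knockout allele nor how many animals each array represents, so p-values measure the spread between arrays, which may be partly technical. The comparison asks whether transcripts of these relatives differ in retinae of mice whose retinoschisin gene is disrupted.

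Discoidin domains bind phospholipids, collagens or carbohydrates at cell surfaces. Mfge8 and Edil3 are secreted and bridge phosphatidylserine to integrins. Ddr1 and Ddr2 are receptor tyrosine kinases for collagen, and Nrp1 and Nrp2 are co-receptors for semaphorins and VEGF. Cntnap1 and Cntnap2 organise axonal membrane domains, and F5 and F8 are plasma cofactors of clotting. In the retina, Mfge8 is known for outer segment phagocytosis at the pigment epithelium, and neuropilins for axon guidance and vessel growth.

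Values below are scaled signals: the deposited intensities after each array was brought to the same trimmed mean. Log2 fold changes are knockout minus wildtype on log2(signal + 19.1), which understates the change of dim probe sets. A probe set was tested if its mean signal exceeded 62.4, the 40th percentile of all probe sets, and 16 of the 24 member probe sets did. None of the probe sets of Ddr2, Cntnap1, F5 and F8 passed that filter. Signals of different probe sets are not on a common scale, and the members are not ranked by signal. Mean signal was used for the filter and to choose a probe set for each partner and marker gene. Sums over marker lists add such signals, so bright probe sets weigh most in them.

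No member gene passed the test, with or without the filter on low signals. Of the 16 tested member probe sets, 0 reached 0.05 after Benjamini-Hochberg adjustment of limma's p-values, against 2 of all 13575 tested (0.0147%). The adjusted p was 0.999 for each member probe set. At an unadjusted p under 0.05 there were 2 member probe sets, against 518 of all probe sets (3.82%). Both were probe sets of Ddr1, and they had opposite signs. Groups did not overlap for 3 of the 16 (9.1% of all probe sets), namely 1 each of Edil3, Ddr1 and Nrp1. Of these, 1 was also at least 1.5-fold apart on the log2 scale (1.61% of all probe sets). Several of the 16 measure the same gene, and nothing about the members is read from these counts. The median log2 fold change was -0.02 over the 16 member probe sets and 0.00031 over all tested probe sets, and the median sizes were 0.14 and 0.13. The median half-width of the members' 95% intervals was 0.46 on the log2 scale.

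**Figure D1:**
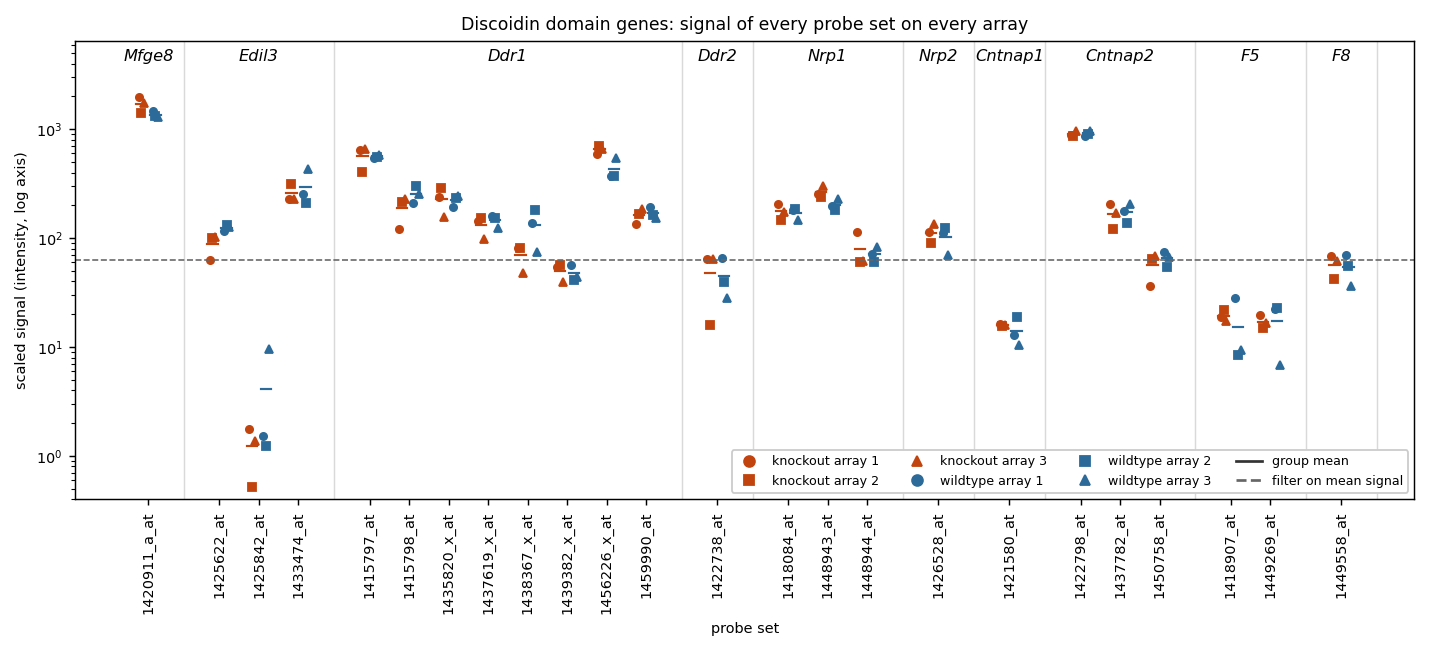
Scaled signal (intensity, log axis) of each of the 24 probe sets on each array, with knockout arrays in orange left of wildtype arrays in blue, horizontal bars for group means and a dashed line at the filter on the mean signal (62.4). Groups overlap for all but 1 tested probe set each of Edil3, Ddr1 and Nrp1, and the probe sets of Ddr2, Cntnap1, F5 and F8 have means below the line.

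The secreted bridging proteins Mfge8 and Edil3 had log2 fold changes of opposite sign, and neither passed the test. Mfge8, also called lactadherin, had 1981, 1413 and 1759 in the knockout arrays, against 1472, 1323 and 1285 in the wildtype arrays. Knockout arrays 1 and 3 lay above every wildtype array, while knockout array 2 lay below wildtype array 1, so the groups overlapped. The mean was 1718 ± 286 in knockout and 1360 ± 98.6 in wildtype (SD, n = 3 each). The log2 fold change was 0.32 with an SE of 0.15 (adjusted p = 0.999 in limma), with a 95% interval of -0.02 to 0.66, and it was 0.21 without knockout array 1. The summed signal of 6 pigment cell genes, of which 5 passed the filter, was 3261, 2085 and 2911 in knockout, against 2910, 1119 and 2234 in wildtype. Of these sums Ttr gave 1878, 1110 and 1485 in knockout, against 1474, 411 and 1161 in wildtype. Log2 fold changes of the 5 were 0.70 (Ttr), 0.34 (Dct), 0.27 (Pmel), -0.0049 (Tyrp1) and -0.06 (Tyr). The part of pigment cell RNA in the Mfge8 values was not tested.

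Edil3, also called Del-1, encodes an integrin-binding matrix protein that is close to Mfge8 in domain structure. Its probe set 1425622_at had 63.0, 99.7 and 102 in knockout, against 116, 131 and 126 in wildtype. Every knockout array was lower than every wildtype array, knockout array 1 lowest. The log2 fold change was -0.44 with an SE of 0.21 (adjusted p = 0.999 in limma), with a 95% interval of -0.91 to 0.03, and it was -0.26 without knockout array 1. A second probe set, 1433474_at, had 229, 313 and 229 in knockout, against 253, 208 and 427 in wildtype, and the groups overlapped. Its log2 fold change of -0.14 rested on the high wildtype array 3, without which it was 0.14. The summed signal of all 8 listed lens genes, of which 4 passed the filter, was 469, 369 and 825 in knockout, against 289, 205 and 1422 in wildtype. It was highest on wildtype array 3 and next highest on knockout array 3, where 1433474_at had 229, its lowest knockout value. The part of lens RNA in the values of 1433474_at was not tested. The third Edil3 probe set, 1425842_at, had a signal of at most 9.62 on every array.

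The collagen receptor Ddr1 had 8 probe sets, more than any other member, and they did not move together. Of the 7 that were tested, 6 had negative log2 fold changes and 1 a positive one. That split was 3 negative and 4 positive with median scaling, and 2 negative and 5 positive without rescaling, where the median of all probe sets was 0.29. The positive one, 1456226_x_at, had 598, 701 and 661 in knockout, against 371, 368 and 546 in wildtype. All 3 knockout arrays lay above all 3 wildtype arrays, with wildtype array 3 the nearest to them. Its mean was 653 ± 51.7 in knockout and 428 ± 102 in wildtype (SD, n = 3 each), and the ratio of the means was 1.53. The log2 fold change was 0.61 ± 0.19 (SE; 95% interval 0.19 to 1.03; limma unadjusted p = 0.0091, adjusted p = 0.999).

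Ddr1 probe set 1438367_x_at pointed the other way. It had 81.8, 81.3 and 48.2 in knockout, against 139, 180 and 74.8 in wildtype. Wildtype array 3 lay below 2 of the 3 knockout arrays, so the groups overlapped. The log2 fold change was -0.70 ± 0.30 (SE; 95% interval -1.37 to -0.04; limma unadjusted p = 0.041, adjusted p = 0.999). Both identifiers end in _x_at, which marks probe sets whose probes can also hybridise with other transcripts. So do those of Ddr1 1435820_x_at, 1437619_x_at and 1439382_x_at, at -0.0045, -0.14 and 0.05. Which transcripts each probe set detects was not tested.

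The remaining Ddr1 probe sets had smaller differences. Probe set 1415798_at had 122, 217 and 226 in knockout, against 211, 301 and 255 in wildtype, with a log2 fold change of -0.43 (-0.18 without knockout array 1). It was lowest in knockout array 1, and the other 2 knockout arrays lay within the wildtype range. The other 4 tested probe sets, 1415797_at, 1435820_x_at, 1437619_x_at and 1459990_at, had log2 fold changes of -0.02, -0.0045, -0.14 and -0.07, and their groups overlapped. Among these, 1415797_at had 642, 406 and 659 in knockout, against 550, 560 and 579 in wildtype, so that the knockout arrays lay on both sides of the closely grouped wildtype arrays. The eighth, 1439382_x_at, was below the filter, at 0.05. The Ddr1 probe sets thus gave no common direction, and the 95% intervals of 1456226_x_at and 1438367_x_at did not meet.

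The other collagen receptor, Ddr2, is known from connective tissue cells. Its single probe set had 64.9, 15.9 and 63.7 in knockout, against 66.0, 39.4 and 28.4 in wildtype. The groups overlapped, with the lowest value in knockout array 2 and the highest in wildtype array 1. With no filter its log2 fold change was 0.01 ± 0.38 (SE), and its 95% interval of -0.86 to 0.89 was the widest among members below the filter.

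**Figure D2:**
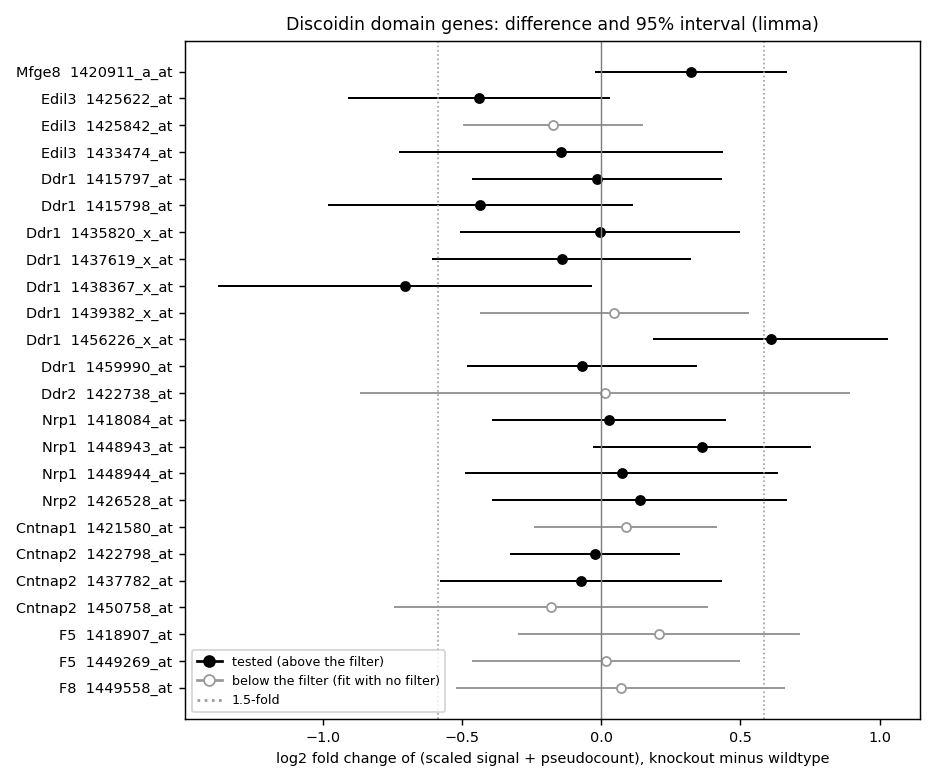
Log2 fold change of each of the 24 probe sets, knockout minus wildtype, with its 95% interval from limma (horizontal axis, log2 units); filled black points were tested and open grey points were below the filter. All intervals but those of Ddr1 1438367_x_at (-0.70) and Ddr1 1456226_x_at (0.61) include 0.

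The neuropilins had positive log2 fold changes in all 4 of their probe sets, 3 of them of Nrp1. Of all 13575 tested probe sets, 6796 were positive. All of the 4 but Nrp1 1448943_at turned negative in at least 1 other setting. Nrp1 binds class 3 semaphorins and VEGF with plexins and VEGF receptors. Its probe set 1448943_at had 256, 238 and 302 in knockout, against 198, 180 and 228 in wildtype. All 3 knockout arrays lay above all 3 wildtype arrays, with knockout array 2 close to wildtype array 3. The mean was 265 ± 33.0 in knockout and 202 ± 24.2 in wildtype (SD, n = 3 each). The log2 fold change was 0.36 ± 0.17 (SE; 95% interval -0.02 to 0.75; limma adjusted p = 0.999).

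The other Nrp1 probe sets did not show that separation. Probe set 1418084_at had 206, 147 and 174 in knockout, against 182, 185 and 147 in wildtype, a log2 fold change of 0.03. Probe set 1448944_at had 113, 60.7 and 61.9 in knockout, against 70.9, 60.5 and 83.2 in wildtype, a log2 fold change of 0.07. Knockout array 1 alone was high there, and without it the values were -0.08 for 1418084_at and -0.17 for 1448944_at. Knockout array 1 also had the highest summed signal of 8 vessel genes, 1679 against 1395 and 1421 in the other knockout arrays and 1234 to 1453 in wildtype. That array also had the highest sums of the microglia list (1346 against 727 to 919 on the other arrays), the list of myelinating glia (1600 against 964 to 1238) and the pigment cell list (3261 against 1119 to 2911). Single bright genes weighed heavily in these sums. On that array Cnp gave 1186 of the myelinating glia sum and Ttr 1878 of the pigment sum. Csf1r gave 672 of the microglia sum and Rgs5 930 of the vessel sum. Rgs5 had 930, 901 and 881 in knockout, against 755, 702 and 729 in wildtype. Cldn5 had 332, 160 and 194 in knockout, against 188, 300 and 159 in wildtype. The myelin gene Mbp was at 318 on that array, below knockout array 3 (371) and wildtype array 1 (327). In these lists 4 of 7 microglia genes and 3 of 5 genes of myelinating glia passed the filter. Each of the 4 tested microglia genes had its highest signal on knockout array 1. Below the filter, Aif1 was at 39.0 there, against 34.4 to 51.6 on the other arrays. Itgam was at 12.3 against 17.9 to 33.7, and Trem2 at 36.5 against 7.45 to 58.9. Sums of the rod and inner retina lists were lowest on knockout array 1, at 20126 and 3622. The part of any of these in the Nrp1 values was not tested, and in tissue RNA more cells of a type and more RNA per cell cannot be told apart.

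Nrp2, the second neuropilin, had 114, 89.2 and 134 in knockout, against 110, 123 and 70.6 in wildtype. The groups overlapped, with the lowest value in wildtype array 3. The log2 fold change was 0.14 ± 0.23 (SE; 95% interval -0.39 to 0.66), and it was -0.06 without wildtype array 3.

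The contactin-associated proteins sit on axons, Cntnap1 (Caspr) at paranodes and Cntnap2 (Caspr2) at juxtaparanodes, where it clusters potassium channels. Cntnap2 probe set 1422798_at had 878, 865 and 963 in knockout, against 874, 902 and 972 in wildtype. The values of the groups nearly coincided, with a mean of 902 ± 53.5 in knockout and 916 ± 50.5 in wildtype (SD, n = 3 each). Its log2 fold change of -0.02 ± 0.13 (SE) had the narrowest 95% interval among the tested member probe sets, -0.32 to 0.28. Probe set 1437782_at had 206, 122 and 171 in knockout, against 177, 139 and 207 in wildtype, a log2 fold change of -0.07. The third, 1450758_at, was below the filter at -0.18, with overlapping groups. Cntnap1 had 16.2, 15.7 and 15.8 in knockout, against 12.96, 18.7 and 10.3 in wildtype, all below the pseudocount of 19.1.

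The clotting cofactors were at low signal on every array. F5, encoding factor V, had 19.0, 21.9 and 17.3 in knockout, against 28.0, 8.42 and 9.34 in wildtype for probe set 1418907_at. Its second probe set 1449269_at had 19.7, 14.8 and 16.5 in knockout, against 22.4, 23.0 and 6.80 in wildtype. F8, encoding factor VIII, had 68.2, 41.7 and 61.6 in knockout, against 70.0, 56.0 and 36.2 in wildtype. In all 3 probe sets the knockout arrays lay within the range of the wildtype arrays. With no filter the log2 fold changes were 0.21 and 0.02 for the F5 probe sets and 0.07 for F8. No detection calls were used, so low signal is not read as absence of the transcript.

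The tested Ddr1 probe set with the largest moderated statistic was 1456226_x_at. The 3 named probe sets most like it across the 6 arrays, out of 4750 candidates, were those of Ugcg, Eif3a and Jade1. Likeness was the root mean square difference of centred log2 signals, which was 0.09 for Ugcg and 0.10 for Eif3a and Jade1. Ugcg, a glucosylceramide synthase, had 130, 145 and 163 in knockout, against 88.0, 82.5 and 123 in wildtype. Each shared with the Ddr1 probe set a wildtype array 3 above the other wildtype arrays, which the choice by likeness favours.

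Partner genes of the members were taken as 7 lists, each gene by its probe set of highest mean signal. Of 64 list genes with a probe set, 37 were tested, and 0 were higher and 0 lower at an adjusted p under 0.05 in limma (0.0147% of all probe sets were called). There were 2 at an unadjusted p under 0.05 (3.82% of all probe sets), and 4 of the 37 had groups that did not overlap (9.1% of all probe sets), 3 lower and 1 higher in knockout. Log2 fold changes were positive for 16 and negative for 21, with a median of -0.05 and a range of -0.44 to 0.57.

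Of 5 tested genes of other proteins with a discoidin domain, 1 had a positive and 4 a negative value. Cpxm1, a carboxypeptidase-like protein, had 64.2, 68.1 and 57.0 in knockout, against 91.4, 76.4 and 72.1 in wildtype, groups that did not overlap (log2 fold change -0.27). Dcbld1, a membrane protein, was at -0.20, and its other tested probe set at -0.05. The neuropilin ligands were split, with 2 of 4 positive. Vegfb had 420, 172 and 192 in knockout, against 159, 182 and 132 in wildtype, a log2 fold change of 0.57. It was high in knockout array 1 alone, and without that array the value was 0.20. Sema3f, a repulsive guidance cue, was at -0.11, while a second tested Sema3f probe set was at 0.51. Of the neuropilin co-receptors and adaptor, 6 of 7 were positive, against 6796 of all 13575 tested probe sets. Among the positive ones, Kdr, Plxna3 and Flt4 were at 0.0081, 0.014 and 0.067. The neuropilin-binding adaptor Gipc1 was at -0.22. Plxnd1, an endothelial plexin, had 68.3, 69.7 and 74.2 in knockout, against 53.1, 64.7 and 59.6 in wildtype. These groups did not overlap, and the log2 fold change was 0.20.

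Of the collagens, ligands of Ddr1 and Ddr2, 4 of 6 were positive. The basement membrane collagens Col4a1 and Col4a2, which lie head to head in the genome, were at 0.33 and 0.19, and were -0.01 and -0.02 without wildtype array 2 and knockout array 1. A second tested Col4a1 probe set was at 0.20. Of 5 engulfment genes, 1 was positive. Itgb1, the integrin beta 1 subunit, had 266, 297 and 376 in knockout, against 422, 428 and 433 in wildtype, groups that did not overlap. Its log2 fold change was -0.44 with an SE of 0.17 (adjusted p = 0.999 in limma), and a second Itgb1 probe set was at -0.39 with overlapping groups. Axl, a receptor kinase for Gas6, was at -0.29.

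Of 8 axonal junction genes, 2 were positive. Cntn1, the contactin that pairs with Cntnap1 at paranodes, had 1023, 997 and 1095 in knockout, against 1317, 1353 and 1315 in wildtype. Every knockout array was lower than every wildtype array, and the log2 fold change was -0.35 with an SE of 0.12 (adjusted p = 0.999 in limma). A second tested Cntn1 probe set was at -0.07. The axonal scaffold Ank3 was at 0.41, and its other tested probe sets were at 0.31 and -0.06. Of the coagulation genes, the tested ones were Lman1 and Mcfd2, the endoplasmic reticulum cargo receptor of factors V and VIII, at -0.12 and -0.05. The other 3 tested Lman1 probe sets were at -0.23, -0.53 and -0.74, and their groups overlapped.

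**Figure D3:**
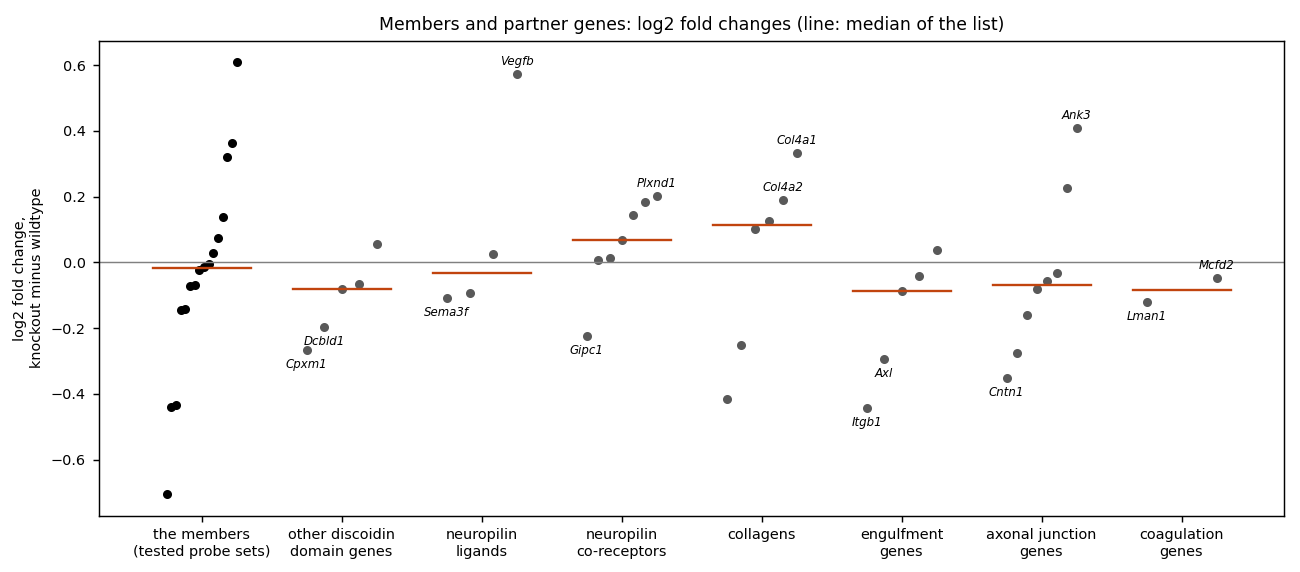
Log2 fold changes, knockout minus wildtype (vertical axis, log2 units), of the 16 tested member probe sets and of the 37 tested partner genes by list, with the median of each list as an orange line and the 2 named genes of each list labelled. The points lie between -0.70 and 0.61, and the medians of the lists run from -0.09 to 0.11.

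Some differences between arrays followed the groups and others did not. The trimmed mean signal before rescaling ran from 263 to 304 in knockout and from 171 to 312 in wildtype. Knockout array 1 correlated with the others at 0.956 to 0.965, against 0.974 to 0.985 among the other 5. The Actb 3′ to 5′ ratio was 1.92 ± 0.24 in knockout and 1.56 ± 0.10 in wildtype (SD, n = 3 each; p = 0.1 in an exact permutation test over arrays, two-sided, the lowest that this design allows). The Gapdh 3′ to 5′ ratio was 1.07 ± 0.16 in knockout and 0.90 ± 0.08 in wildtype (SD, n = 3 each, exact two-sided permutation p = 0.2). The 5′ probe set of the 18S control was at 609 in knockout array 1 and 2573 in wildtype array 2, against 38.8 to 54.9 on the other 4. The rod genes found on the array, 6 of 8 listed, had summed signals of 20126 to 24157 in knockout and 22922 to 24778 in wildtype, as a check of the labelled tissue. The 6 skeletal muscle genes, of which 3 passed the filter, summed to 236 to 301 in knockout and 350 to 493 in wildtype (exact two-sided permutation p = 0.1). Among them, Acta1 was at 205 on wildtype array 3, against 37.9 to 62.1 on the other arrays. The permutation p-values were not adjusted for the number of array checks made. The part of RNA quality or of muscle in the members' values was not tested.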

How the data were processed

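The authors deposited linear intensity values, a value for each probe set on each array, and the submitters' processing notes name MAS5. Version, scaling target and detection calls are not given in the sources used here. Control probe sets (64) were dropped before the fit. Arrays were scaled to a common 2% trimmed mean. Log2 values were taken after adding 19.1, the 20th percentile of signals, and the 13575 probe sets whose mean signal exceeded the 40th percentile were tested. Differences, knockout minus wildtype, were fitted with limma 3.58.1 under R 4.3.3 using an intensity trend, and p-values were adjusted by Benjamini-Hochberg over the whole table. The fit was also run on simulated data, with normal errors whose variances came from limma's fitted variance model and were not resampled from these arrays. At an adjusted p under 0.05 in limma it recovered 5.7% of simulated 1.5-fold changes, 48.4% of 2-fold and 88.6% of 3-fold changes. Most changes of 1.5-fold would therefore be missed in that setting. Probe sets below the filter take their errors from a fit of all 22626. Symbols of the platform annotation were updated by Entrez identifier (20351 matches). Probe sets with several symbols (691) or none (1555) were not named. Single values per array were compared by exact permutation.

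The members, the 7 partner lists and the 9 marker lists were chosen with earlier results of these data known. Named were all members, the 2 genes of each partner list with the largest moderated statistic, and 3 probe sets most like the member with the largest one, among those with at least 0.8 of its range. Alternatives changed the scaling, pseudocount, filter, variance model and array weights, added the replicate block, or left out arrays. Precision is limited by having 3 arrays in each group.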

Additional observations from a re-analysis of the deposited data

How the results depend on the processing

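No member probe set and no partner gene passed the threshold under any setting run, planned or added. Leaving out both arrays of high 18S signal (wildtype 2 and knockout 1) was chosen after seeing the data. The lowest adjusted p of a member was 0.58, without knockout array 2. The signs of Mfge8 (0.19 to 0.64), Edil3 1425622_at (-0.54 to -0.18), Ddr1 1456226_x_at (0.52 to 0.91), Ddr1 1438367_x_at (-1.01 to -0.43), Ddr1 1415798_at (-0.58 to -0.061) and Nrp1 1448943_at (0.27 to 0.65) held in all settings that tested them. The other 10 member probe sets turned in 39 of their 130 values and 7 of 14 partner probe sets in 13 of 91, counting only settings that can move a fold change. The cause was not tested.

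Over the whole table, 2 probe sets were called; the total was 10 with deposited values not rescaled, 1 when no filter was set, 0 by an ordinary statistic (492 at an unadjusted p under 0.05) and 4 with both high 18S arrays out. Leaving out single arrays gave 0 to 4 calls: wildtype 3 out gave 0, wildtype 2 out gave 4, and knockout 2 or knockout 3 out gave 1. The 1 member probe set 1.5-fold apart without overlap became 0 under the higher pseudocount (0.928% of all probe sets) and 0 with both high 18S arrays out (0.987%). Leaving out single arrays gave 0 to 2: 0 with knockout 2, wildtype 1 or wildtype 2 out, where 5.65%, 3.45% and 1.89% of all probe sets were so apart, and 2 with wildtype 3 out, where 3.01% were.

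The replicate block fit, which adds the number in the labels as a factor, called 2 probe sets and 0 members (lowest member adjusted p = 0.68), and had 766 probe sets at an unadjusted p under 0.05, against 518. Same-numbered arrays had deviations that correlated at 0.18, -0.03 and 0.08, while differently numbered ones lay between -0.29 and 0.26. Of the 6 arrays, 3 correlated best with their own number, and knockout 1 and wildtype 1, a single pair, both count among them. The highest correlation of any pair, 0.26, was between knockout 2 and wildtype 3. Pairing by number is therefore not established.

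For values as deposited, where the median of all probe sets was 0.29, these log2 fold changes became positive: Cntnap2 1422798_at (0.29) and 1437782_at (0.20), Ddr1 1415797_at (0.29), 1435820_x_at (0.29), 1437619_x_at (0.14) and 1459990_at (0.21), Edil3 1433474_at (0.14), Dcbld1 (0.077), Gipc1 (0.068), Lman1 (0.19), Mcfd2 (0.27) and Sema3f (0.16). With median scaling, Cntnap2 had 0.071 and 0.012, Ddr1 1415797_at 0.076, 1435820_x_at 0.082 and 1459990_at 0.016, and Mcfd2 0.047. Member probe sets with positive values numbered 6 of 16, 7 with quantile normalization, 11 with median scaling and 13 as deposited. Ddr1 1435820_x_at was 0.016 with quantile normalization and 0.00045 under the higher pseudocount. With array weights, Cntnap2 1422798_at (0.022), Edil3 1433474_at (0.022), Nrp1 1418084_at (-0.082) and Nrp1 1448944_at (-0.040) turned. With both high 18S arrays out, Col4a1 (-0.013), Col4a2 (-0.016), Ddr1 1459990_at (0.011), Mcfd2 (0.10), Nrp1 1418084_at (-0.028) and Nrp1 1448944_at (-0.26) turned.

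With single arrays out, values that turned ranged as follows. Cntnap2 ran from -0.069 to 0.021 (1422798_at) and from -0.23 to 0.11 (1437782_at). Ddr1 ran from -0.13 to 0.20 (1415797_at), -0.17 to 0.22 (1435820_x_at), -0.26 to 0.030 (1437619_x_at) and -0.16 to 0.038 (1459990_at). Edil3 1433474_at ran from -0.35 to 0.14, Nrp1 from -0.081 to 0.14 (1418084_at) and -0.17 to 0.20 (1448944_at), and Nrp2 from -0.061 to 0.27. Gipc1 ran from -0.51 to 0.0018, Lman1 from -0.21 to 0.0091 and Mcfd2 from -0.13 to 0.048.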
